A study of Mus musculus with 60 samples.

Results

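The Tet1 catalytic mutant (MUT) was followed over the first days of neural differentiation, from embryonic stem cells at day 0 to cells at day 2. The members are the 4 H3K27me3 CUT&RUN libraries of the MUT lines CM40 and CM59 at day 2 and at day 0, chosen by their labels, out of 60 samples in all, of which 30 carry the H3K27me3 antibody and 30 are IgG controls. CUT&RUN releases and sequences the DNA around an antibody bound in permeabilised cells. Each line was compared with itself, and the question was which regions and genes gain or lose H3K27me3 peaks, and whether peaks widen, while cells leave the stem cell state. CM40 and CM59 are clones derived by Cas9 homology-directed repair from 1 parental line, WT7, and the labels give their background as B6129S6F1 with the Tet1<tm1Koh> name. Day 0 cells were embryonic stem cells grown with serum and then depleted of feeder cells, and day 2 cells had been kept in N2B27 medium with bFGF. No inhibitor had been added by day 2. The other lines with both days are WT70 and WT72 (wild type) and KO15 and KO25 (Tet1 knockout), which had the same culture, and MUT is also sampled at days 3 and 5, where the lines are CM59 and CM69.

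H3K27me3 is laid down by Polycomb repressive complex 2, mostly at CpG-rich promoters of developmental regulators, where it goes with low transcription. When embryonic stem cells enter differentiation, genes of the naive state are switched off and genes of the formative and neural state are switched on. TET1 oxidises methylated cytosine, and a catalytic mutant leaves in place whatever the protein does without that enzyme activity.

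The mutation was written by a guide RNA and a single-stranded donor, shown here because they define the lines. The guide lies at chr10:62814460-62814479 on the plus strand of GRCm38.p6, within a coding exon of Tet1, which is on the minus strand. In GENCODE M21 it is exon 11 or exon 9 of the longer coding transcripts, and the first exon of shorter ones. The capitals at the end of the guide line are the adjacent reference bases, the PAM.
Tet1 guide with PAM: gtgaatgtccttgtgagaatGGG
The donor covers chr10:62814427-62814521, and capitals in the next lines mark the 3 bases at which reference and donor differ.
Tet1 reference: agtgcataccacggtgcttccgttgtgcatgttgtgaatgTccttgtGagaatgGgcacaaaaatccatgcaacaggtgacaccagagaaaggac
Tet1 donor: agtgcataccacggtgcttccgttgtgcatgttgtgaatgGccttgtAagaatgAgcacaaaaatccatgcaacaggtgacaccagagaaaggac
Counted from 1 at the first base shown, the substitutions are T41G, G48A and G55A. The first makes the only GGCC in the stretch, the recognition sequence of HaeIII, with which clones were screened. Peak positions cannot show these bases, and the Tet1 promoter had no peak in any of the 4 libraries.

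Peaks of the 2 MUT lines shared 55.0% of the bases covered in either at day 2 and 49.7% at day 0, and day 2 shared 50.9% with day 0 within CM40 and 56.6% within CM59. Lines and days thus differed to a similar extent. CM40 had 2018 peaks at day 2 and 3466 at day 0, and CM59 had 1586 at day 2 and 1728 at day 0. Covered bases came to 20.5 Mb at day 2 and 20.8 Mb at day 0 in CM40, and to 11.7 Mb and 11.5 Mb in CM59. Over all 30 libraries the number of peaks ranged from 704 to 3466. The lowest total signal of any peak was 82218 at day 2 and 21689 at day 0 in CM40, a ratio of 3.79, and 59542 and 34487 in CM59, a ratio of 1.73. The weakest peak listed was thus stronger at day 2 than at day 0 in both lines. The sum of signal under peaks was also 2.28 times as high at day 2 as at day 0 in CM40 and 1.95 times in CM59. The signal is unscaled coverage, read depth is unknown from these files, and its part in gains, losses and widths was not tested. In bulk cells, a share of cells that carry the mark cannot be told apart from the amount of mark per cell.

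**Figure D1:**
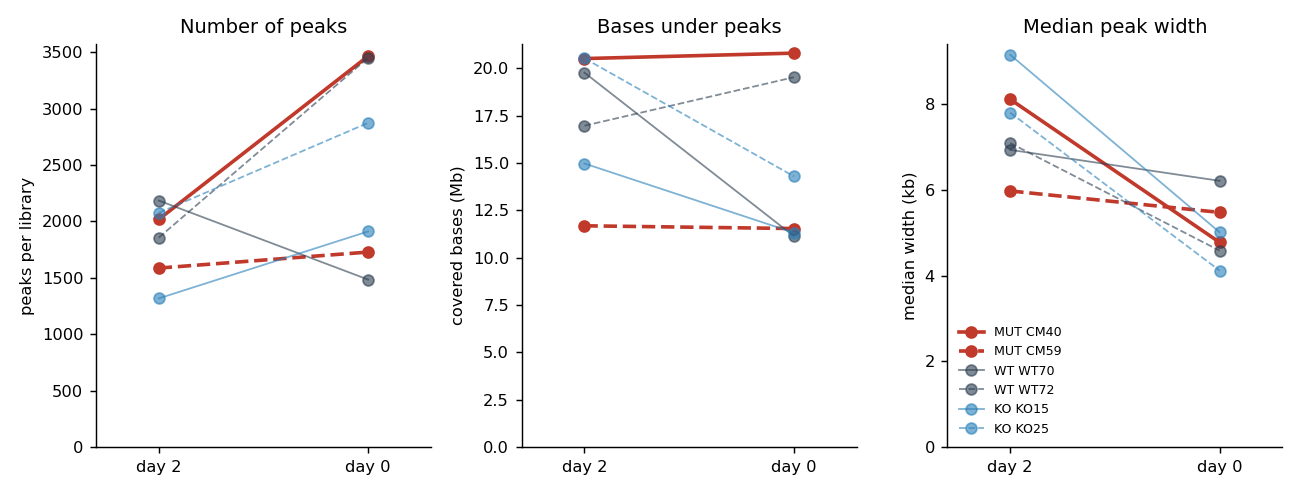
Number of peaks, bases under peaks (Mb) and median peak width (kb) in each library of the 6 lines sampled at day 2 (left of each panel) and day 0 (right), with 1 line of points per cell line. CM40 and CM59 cover almost the same number of bases at both days, 20.5 and 20.8 Mb and 11.7 and 11.5 Mb, while median width is higher at day 2 in all 6 lines.

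Some naive-state and signalling genes acquired H3K27me3 promoter peaks in both MUT lines by day 2, and some formative and neural genes no longer had them. Of 3828 regions with a peak in at least 2 of the 30 libraries, 68 were called at day 2 and not at day 0 in both lines (gained), which is 1.78% of the regions, and 240 were called at day 0 and not at day 2 in both lines (lost), 6.27%. A further 1122 regions were called in all 4 libraries. CM40 alone gained 192 and lost 1276 regions, and CM59 alone gained 256 and lost 430. The 68 shared gains are 35.4% of those of CM40 and 26.6% of those of CM59, and the 240 shared losses are 18.8% and 55.8%. Only 6 regions went in opposite directions in the 2 lines. With 2 pairs of libraries an exact sign-flip test cannot go below p = 0.5, and an exact permutation of 2 libraries against 2 cannot go below p = 0.33, so these are counts with no test.

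The counts depend on how many peaks each library contributes. With the 1586 strongest peaks of every library, 207 regions were gained and 198 lost in both lines. These held 58 of the 68 gained regions and 129 of the 240 lost ones, 85.3% and 53.8%. With the strongest 75% of each library's peaks they were 35 (51.5%) and 89 (37.1%), and where 50% of a region had to be covered 41 (60.3%) and 184 (76.7%).

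At promoters, 60 genes were gained and 202 lost in both lines, 2.1% and 7.07% of the 2857 genes with a promoter peak in at least 1 of the 4 libraries. A promoter was the stretch within 1.5 kb of a start site. Position of a peak within its own library is given below as a rank, the percentage of that library's peaks with a lower total signal.

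Among the naive pluripotency genes, 2 of 8 with a peak in any of the 4 libraries were gained and 0 were lost, against 2.1% and 7.07% of all such genes. The list had 8 genes called in each day 2 library, against 6 in CM40 and 3 in CM59 at day 0. Klf4, a transcription factor of the naive network, had peaks of 9.45 kb in CM40 and 2.64 kb in CM59 at day 2 and no peak in either line at day 0. Their ranks were 75.7 and 47.2. Klf2, its close relative, had peaks of 8.01 kb and 2.72 kb at day 2, with ranks of 69.5 and 44.1, and none at day 0. The peaks spanned from 5.47 kb before to 3.98 kb after the 5′ end of Klf4 in CM40, whereas in CM59 the peak ran from 0.428 to 3.07 kb after it. Nanog, Sox2 and Dnmt3b had no promoter peak in any of the 4 libraries, and Esrrb had one in all 4.

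The start regions of Klf2 and Klf4 are shown because both promoters, as defined above, gained a peak, with every CpG in capitals. At Klf4 the CM59 peak began 0.428 kb after the 5′ end, beyond the window shown. The RefSeq windows of build GRCm38.p6 are 300 bases long and reach from upstream of the start to just past it, chr8:72318812-72319111 on the plus strand and chr4:55532426-55532725 on the minus strand.
Klf2: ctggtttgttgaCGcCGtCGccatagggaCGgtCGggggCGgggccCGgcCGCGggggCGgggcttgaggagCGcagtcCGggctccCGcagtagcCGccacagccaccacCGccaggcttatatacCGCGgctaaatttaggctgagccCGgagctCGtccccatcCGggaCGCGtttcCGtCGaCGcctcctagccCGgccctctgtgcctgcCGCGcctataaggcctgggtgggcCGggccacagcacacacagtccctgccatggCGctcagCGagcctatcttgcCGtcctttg
Klf4: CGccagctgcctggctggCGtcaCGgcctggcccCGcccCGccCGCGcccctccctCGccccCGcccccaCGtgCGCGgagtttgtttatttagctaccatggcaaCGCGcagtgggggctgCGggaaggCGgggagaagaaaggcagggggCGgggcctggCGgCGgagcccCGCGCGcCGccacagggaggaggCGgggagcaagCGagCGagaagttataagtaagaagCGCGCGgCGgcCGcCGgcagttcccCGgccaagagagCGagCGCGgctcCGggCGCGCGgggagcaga
They hold 32 and 40 CpGs in 300 bases.

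Among the formative and primed genes, 3 of 13 with a peak were lost (23.1%), against 7.07% of all genes with a peak. Fgf5, the classical marker of the formative epiblast, had no peak at day 2 in either line, against peaks of 5.42 kb in CM40 and 3.88 kb in CM59 at day 0, with ranks of 66.3 and 28.2. Pou3f1, which encodes the neural-promoting factor OCT6, had none at day 2, against 5.73 kb and 6.39 kb at day 0. Zic2, a zinc-finger factor of the epiblast and the neural plate, had none at its promoter at day 2, against 11.5 kb and 7.27 kb at day 0. The day 0 promoter peaks of these 3 genes were low in height, at 41 and 26 units for Fgf5, 26 and 20 for Pou3f1 and 39 and 25 for Zic2. Downstream of the Zic2 promoter a separate peak remained. At day 2 it ran from 4.81 to 13.2 kb after the 5′ end in CM40 and from 8.05 to 10.9 kb in CM59, with heights of 77 and 62 units. Tcf15, a transcription factor of the epiblast, went the other way, with peaks of 8.67 kb in CM40 and 6.85 kb in CM59 at day 2 and none at day 0. Otx2, a forebrain and epiblast regulator, had a 7.74 kb peak at rank 34.5 in CM40 and none in CM59 at day 2, against peaks of 16.9 kb and 11.2 kb at ranks 96.1 and 90.4 at day 0. It was thus near the top of each day 0 library, and in CM59 had no peak at day 2. In the WT and KO lines it was called on both days.

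The start region of Fgf5 stands beside that of Brsk2, a neuronal kinase gene lost in the same way, at chr5:98253934-98254233 and chr7:141949501-141949800, both on the plus strand, again with each CpG in capitals.
Fgf5: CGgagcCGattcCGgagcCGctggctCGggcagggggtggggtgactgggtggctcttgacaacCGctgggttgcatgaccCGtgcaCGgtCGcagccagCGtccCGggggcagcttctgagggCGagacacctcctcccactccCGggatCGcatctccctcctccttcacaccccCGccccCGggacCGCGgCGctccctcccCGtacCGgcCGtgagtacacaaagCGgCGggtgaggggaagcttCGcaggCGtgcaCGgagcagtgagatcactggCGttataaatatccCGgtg
Brsk2: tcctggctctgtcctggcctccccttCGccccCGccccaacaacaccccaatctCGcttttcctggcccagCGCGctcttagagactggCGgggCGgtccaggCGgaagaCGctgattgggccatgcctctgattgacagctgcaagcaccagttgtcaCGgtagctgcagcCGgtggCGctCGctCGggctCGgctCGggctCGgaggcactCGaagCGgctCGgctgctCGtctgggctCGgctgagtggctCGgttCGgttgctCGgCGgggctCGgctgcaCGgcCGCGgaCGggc
They hold 29 and 31 CpGs, so all 4 promoters shown are dense in CpG. Over the same window read from the genome, gained genes had a median of 17.5 CpGs (n = 60), lost genes 16 (n = 202), genes called in all 4 libraries 18 (n = 1067) and all genes 11 (n = 21853). At least 20 CpGs were found in 48.3% of gained and 40.1% of lost genes, against 46.6% of genes called in all 4 libraries and 31.4% of all genes.

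Signalling genes were divided by pathway. In the BMP, Nodal and TGF-beta list, 3 of 25 genes with a peak were gained (12%) and 0 lost, against 2.1% and 7.07% of all genes with a peak. Lefty1, a Nodal antagonist expressed in stem cells, had peaks of 5.79 kb in CM40 and 5.83 kb in CM59 at day 2, each at rank 72, and none at day 0. Id1, a target of BMP signalling, had peaks of 8.18 kb and 1.49 kb at day 2 and none at day 0. Id2, of the same family, had 9.33 kb and 9.15 kb at day 2 and none at day 0. Among FGF ligands, 0 of 13 genes were gained and 3 were lost (23.1%, against 7.07% of all). These were Fgf5, already counted among the formative genes, Fgf14 and Fgf15. Fgf14 and Fgf15 were not lost in both lines with the 1586 strongest peaks or the strongest 75% of each library. Fgf15 had no peak at day 2, against 5.66 kb and 3.37 kb at day 0, with the CM59 peak at rank 3.36 and so close to the weakest listed there. In the Wnt list, 1 of 39 was gained and 3 were lost, shares near those of all genes. Fzd10, a Wnt receptor, had peaks of 8.28 kb and 11.9 kb at day 2 and none at day 0. Wnt16, a ligand, Dkk2, a modulator of Wnt receptors, and Rspo4, an enhancer of Wnt signals, had none at day 2, against 3.43 to 6.06 kb at day 0. Dkk2 still had a peak at day 2 in 3 of the 4 WT and KO lines.

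Neuronal function genes, which encode channels, receptors and synaptic proteins, had 1 gain and 4 losses among 48 with a peak, 2.08% and 8.33%, close to all genes. At day 2 the list had 32 called in CM40 and 25 in CM59, against 46 and 31 at day 0. The 4 lost in both lines were the potassium channel genes Kcnj3 and Kcnk3, the glutamate receptor gene Grik3 and Brsk2. Brsk2 had no peak at day 2, against 7.70 kb in CM40 and 6.82 kb in CM59 at day 0, with ranks of 70.1 and 43.5. Grin1, which encodes an NMDA receptor subunit, was the gain, with 13.53 kb and 5.81 kb at day 2 and none at day 0.

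Lineage regulators mostly kept their peaks. All 39 Hox genes were called in all 4 libraries, and so were 33 of 36 neuronal transcription factors, 30 of 34 neuroectoderm and forebrain genes, 19 of 27 mesoderm genes and 12 of 17 primitive streak genes with a peak in any of the 4. Over all 2857 genes with a peak the share called in all 4 was 37.3%, against 91.7%, 88.2%, 70.4% and 70.6% for the last 4 lists in the order given. Neurod1, a neurogenic factor, had none at day 2, against 7.32 kb and 6.80 kb at day 0, and Myod1, the muscle determination factor, had none, against 5.53 kb and 4.07 kb. Myod1 still had a peak at day 2 in WT70 and WT72. Hhex, an endoderm factor, had 6.65 kb and 4.45 kb at day 2 and none at day 0. Cdx4, a primitive streak factor, had 6.13 kb and 5.13 kb at day 2, the second at rank 0.189. The germline, Polycomb, trophoblast, neural crest, TET and DNA methylation, neuroectoderm, Hox and housekeeping lists, 8 of 19, had neither a gain nor a loss in both lines. No housekeeping gene had a promoter peak in any of the 4 libraries, as background of the calls. Of the feeder fibroblast markers, Thy1 was lost, and of 15 genes 5 and 4 were called at day 2 in CM40 and CM59, against 6 and 4 at day 0, and their part in the results was not tested.

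**Figure D2:**
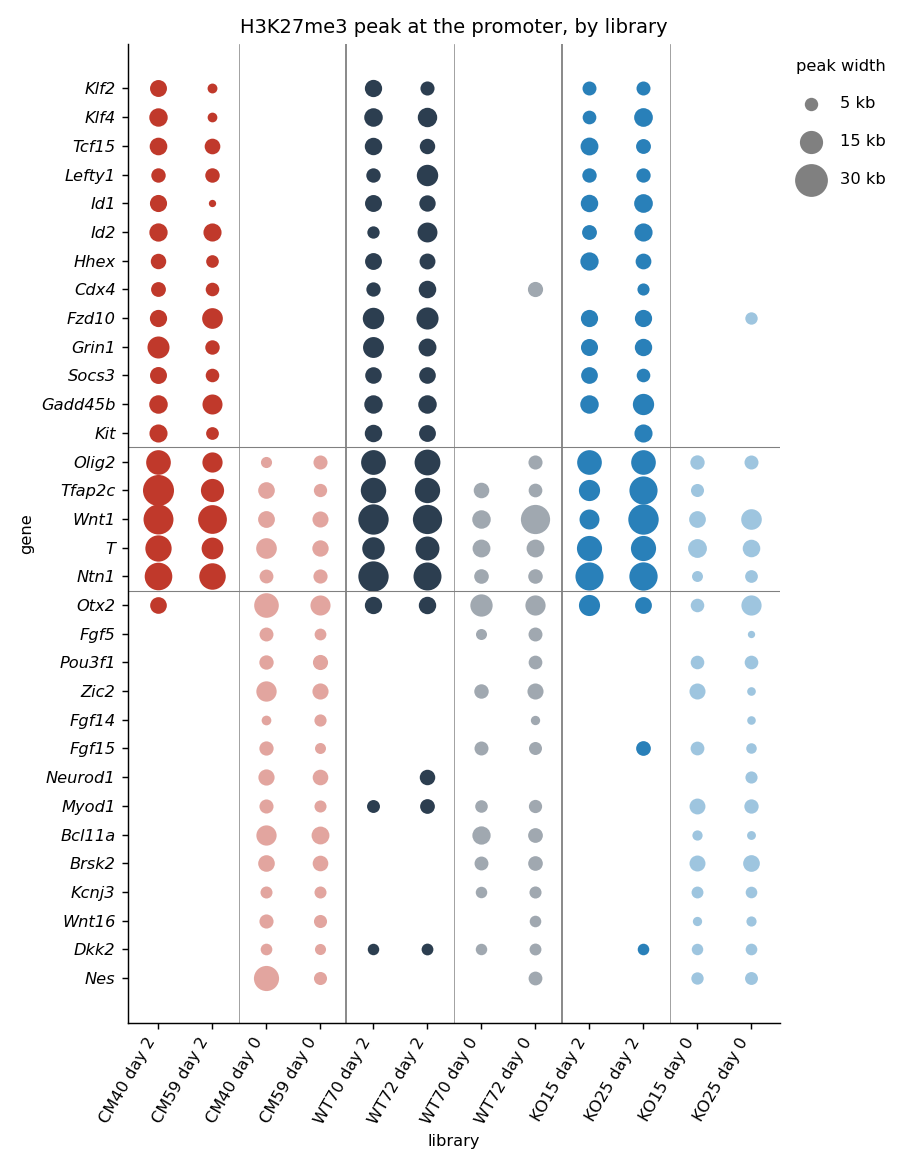
Peak at the promoter of 32 genes (rows) in 12 libraries (columns), with the area of a dot standing for the width of the strongest peak and no dot where there was none. The upper 13 genes have dots in both MUT libraries at day 2 and in neither at day 0, the next 5 have a wider strongest MUT peak at day 2, and the lower 14, from Otx2 down, have peaks mainly at day 0.

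By strength, the 10 gained regions with the highest rank in the weaker line held the promoters of Ccdc27, Gadd45b, Fzd10, Mapkapk2, Epb41l1 and Lefty1, and 4 held no promoter. Gadd45b, a stress-response gene, had 9.55 kb in CM40 and 11.2 kb in CM59 at day 2, at ranks of 80.6 and 82.2, and none at day 0. The strongest region had no promoter, at chr15:91906088-91912491, with a height of 227 units in CM40 and 163 in CM59 at day 2. One of the 4, chr2:172508861-172524074, lies 25.5 kb from the start of Tfap2c. Further down, and picked after its values were seen, a gained region at chr3:34653588-34672287 lies 3.18 kb beyond the start of Sox2, the promoter of which had no peak. Of the gained regions, 3 were under 2 kb with heights of 232 to 437 units, unlike the rest.

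The 10 strongest lost regions held Bahd1, Slc35d3, Bcl11a, Pcdh1 and Kif1a, and 5 regions on chromosome 14 at or near numbered Gm genes. Bahd1, which encodes a chromatin silencing protein, had no peak at day 2, against 15.3 kb in CM40 and 11.3 kb in CM59 at day 0, at ranks of 96.4 and 90.8. The Bahd1 region was still called at day 2 in WT70 and KO25. Bcl11a, a transcription factor of the nervous system and blood, had none at day 2, against 11.4 kb and 8.88 kb at day 0. Kif1a, a motor protein of axons, had none at day 2, against 6.61 kb and 5.48 kb at day 0. The numbered Gm genes, 12 of the 202 lost genes and 10 of them on chromosome 14, include near-identical copies between which reads may be split, so their calls are uncertain. Most lost regions were not strong in both lines. The median rank of their day 0 peaks was 57.9 in CM40 but 18.8 in CM59, and that of gained peaks at day 2 was 48.4 in CM40 and 27.9 in CM59.

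Outside the lists and picked after their values were seen, the 60 gained genes also included Socs3, a feedback inhibitor of LIF signalling, Kit, a receptor of germ and blood cells, Fos and Bcl6. Socs3 had 8.01 kb and 5.13 kb at day 2 and none at day 0. The CM59 peak of Kit was at rank 1.77, close to the weakest listed there, and KO15 had no Kit peak at day 2. Bcl6 was no longer gained in both lines with a promoter window of 0.5 kb or an overlap of at least 500 bp. Nes, the intermediate filament gene of neural progenitors, was among the lost genes, with none at day 2, against 17.7 kb and 4.76 kb at day 0.

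In place and size the regions are described without a test. A promoter lay in 48 of the 68 gained regions (70.6%) and 204 of the 240 lost ones (85%), against 78.3% of all 3828. The median width was 10.0 kb for gained, 6.39 kb for lost and 11.97 kb for regions called in all 4 libraries. Median GC content was 50.5% in gained, 50.6% in lost and 50.4% in the regions called in all 4. On the X chromosome lay 4 gained and 4 lost regions, 5.88% and 1.67%. A deposited list of regions higher in KO than in WT at day 5 under the Wnt inhibitor XAV, which was selected on KO and WT libraries, took in 61.8% of the gained and 30% of the lost regions, against 49.3% of all and 68.1% of those called in all 4 MUT libraries, and the gained and lost regions were 2.23% and 3.82% of that list. Of the other deposited lists, the one of regions that gained the mark in KO only after day 0 took in 32.4% of gained and 41.7% of lost regions (37.3% of all). The list of regions with less of the mark in KO at day 0 and no later gain took in 30.9% and 17.5% (20.5% of all), and that of regions with less at day 0 and a gain by day 5 took in 14.7% and 19.2% (19.5% of all).

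Among the 1122 regions called in all 4 MUT libraries, widening was clear in CM40 and slight in CM59. Median width was 9.70 kb at day 2 and 7.60 kb at day 0 in CM40, and 6.57 kb and 6.27 kb in CM59. The median log2 ratio of day 2 over day 0 was 0.28 in CM40 (quartiles 0.050 and 0.58) and 0.037 in CM59 (quartiles -0.16 and 0.29). In CM40 82.7% of regions were wider at day 2, and in CM59 57.8%. At least 1.5-fold wider in both lines were 54 regions (4.81%), and at least 1.5-fold narrower 6 (0.535%). Across regions the 2 lines' log2 ratios correlated at r = 0.14, a description over 1122 regions that are not independent samples.

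**Figure D3:**
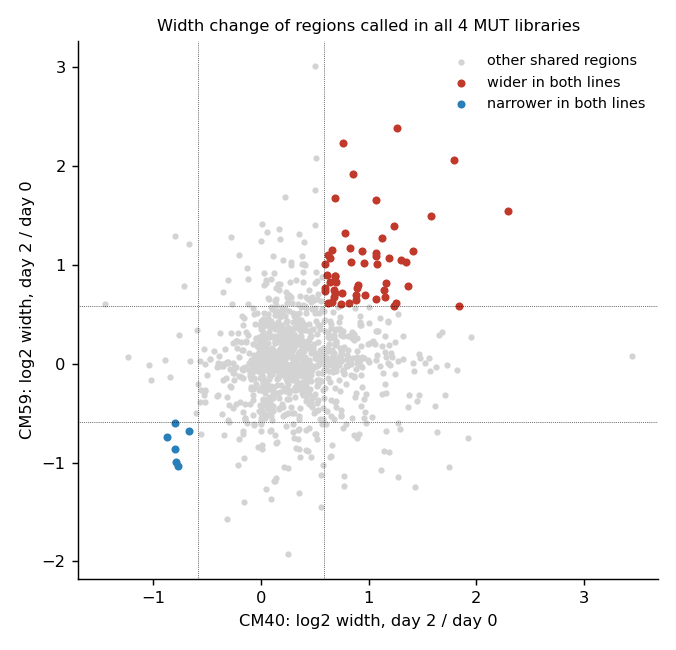
Log2 ratio of the width at day 2 over that at day 0 in CM40 (horizontal) and CM59 (vertical), with 1 point for each of the 1122 regions called in all 4 MUT libraries and dotted lines at 1.5-fold. The cloud is shifted to the right, by a median of 0.28 in CM40 against 0.037 in CM59 on the vertical axis, and 54 regions are wider and 6 narrower in both lines.

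The 10 regions that widened most in both lines held the promoters of transcription factors as well as of channel, receptor and signalling genes. Tfap2c, a transcription factor of trophoblast, germ cells and naive cells, was covered over 26.8 kb in CM40 and 20.5 kb in CM59 at day 2, against 7.73 kb and 4.92 kb at day 0. Olig2, a factor of motor neuron and oligodendrocyte progenitors, was covered over 16.9 kb and 16.1 kb at day 2, against 3.46 kb and 5.51 kb at day 0. The others of the 10 widest were at Elfn2, Trp73, Adgrb1, Klhdc8a, Ovol1, Kcnq1, Rassf5 and Ntn1, some of them with a neighbouring promoter in the same region. Ntn1, which encodes the axon guidance protein netrin, had 21.2 kb and 19.6 kb covered at day 2, against 10.1 kb and 8.98 kb at day 0. The promoter peak of T, the primitive streak factor Brachyury, was 19.3 kb and 13.2 kb wide at day 2, against 11.9 kb and 7.46 kb at day 0. That of Wnt1, a ligand of the midbrain and dorsal neural tube, was a single peak of 24.98 kb and 23.05 kb at day 2, whereas at day 0 the same stretch held a pair of peaks. Covered bases in the Wnt1 region were 1.21 times as many at day 2 as at day 0 in CM40 and 1.26 times in CM59, under the limit of 1.5-fold. Narrowing was rare. Inhba, which encodes a subunit of activin, had 6.04 kb and 6.77 kb covered at day 2, against 10.5 kb and 12.3 kb at day 0, and Nog, the BMP antagonist noggin, had 6.34 kb and 2.39 kb at day 2, against 10.1 kb and 3.82 kb. The region of H2-Q7, also among the 6 narrower ones, belongs to a family of near-identical genes and is uncertain.

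**Figure D4:**
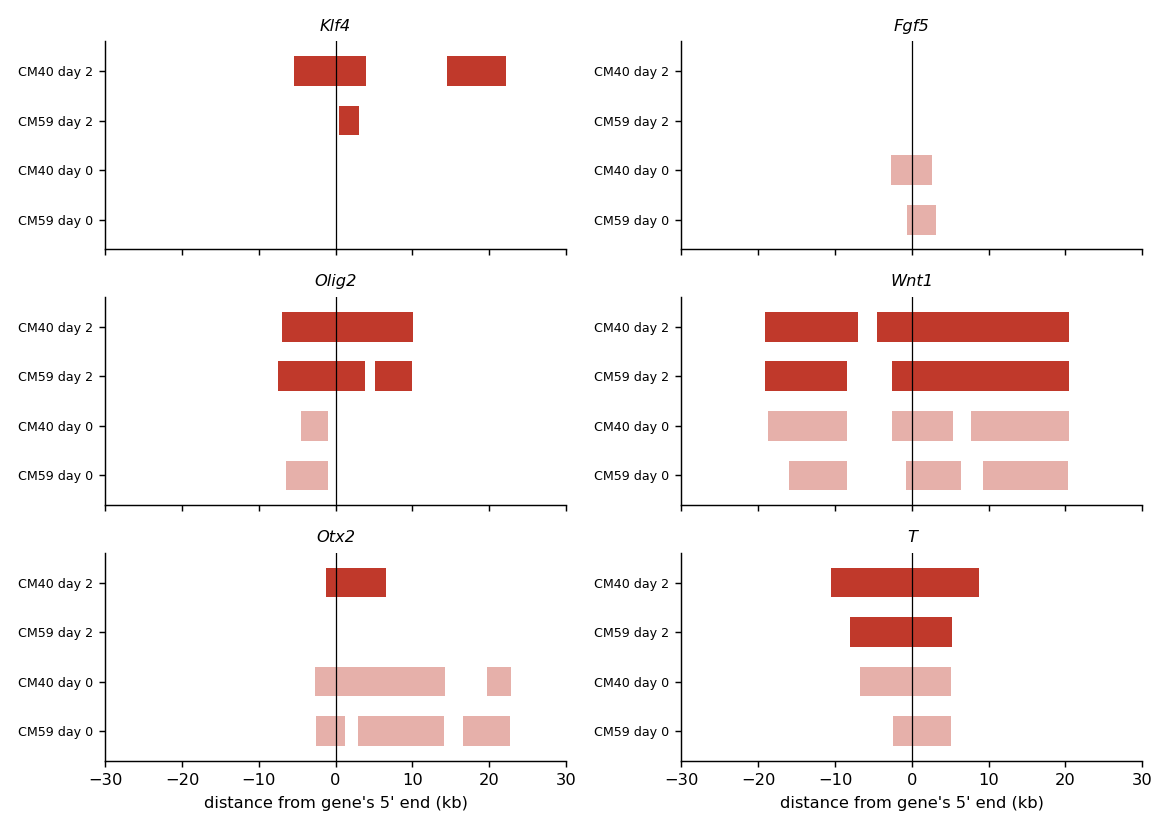
Peaks within 30 kb of the 5′ end of 6 genes (vertical line at 0, transcription to the right) in the 4 MUT libraries, with day 2 in the upper 2 rows and day 0 in the lower 2 rows of each panel. Klf4 has peaks only at day 2 and Fgf5 only at day 0 in this window, Olig2, Wnt1 and T are covered more widely at day 2, and Otx2 more widely at day 0.

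Signal was compared between days as a share of the total over these 1122 regions within each library. The share was at least 1.5-fold higher at day 2 in both lines for 31 regions (2.76%) and at least 1.5-fold lower for 131 (11.7%). The log2 changes of the 2 lines correlated at r = 0.70 across regions, again as a description. Olig2 held 1.49 per mille of the signal in CM40 and 1.51 in CM59 at day 2, against 0.144 and 0.278 at day 0. Tfap2c held 2.02 and 2.11 per mille at day 2, against 0.499 and 0.444 at day 0. Tbx3 and Prdm14, both factors of naive or germline cells, held 4.55 and 4.63 per mille (Tbx3) and 0.925 and 0.860 per mille (Prdm14) at day 2. At day 0 the values were 1.99 and 1.57 for Tbx3 and 0.346 and 0.375 for Prdm14. Of the 54 wider regions 18 were among the 31 with a higher share, and of the 6 narrower regions 4 were among the 131 with a lower share. Hes5, a Notch target of neural progenitors, held 0.201 and 0.235 per mille at day 2, against 0.762 and 0.559 at day 0, and it shares its region with Pank4. Sox9, a factor of glia, cartilage and crest, held 0.186 and 0.289 per mille at day 2, against 0.509 and 0.640 at day 0.

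The gains and losses chosen in MUT recurred in lines that had not been used to choose them. The 68 gained regions were called in 97.1% of cases in WT70, 94.1% in WT72, 69.1% in KO15 and 94.1% in KO25 at day 2, against 4.41%, 8.82%, 4.41% and 7.35% at day 0. The mean difference over the 4 lines was 82.4 ± 12.2 percentage points (SD, n = 4), higher at day 2 in 4 of 4 lines. All kept regions changed by -7.78 ± 20.9 points over the same lines (SD, n = 4), higher in 1 of 4. An exact sign-flip test over 4 lines gave p = 0.125 for the gained regions (two-sided), the smallest it can give, and p = 0.5 for all kept regions. Every gained region was called at day 2 in at least 1 of the 4 lines, and 46 in all 4. Klf2, Klf4, Tcf15, Lefty1, Id1, Id2, Hhex, Grin1, Socs3 and Gadd45b were called at day 2 in all 4 and at day 0 in none of them.

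The 240 lost regions were called in 31.3% of cases in WT70, 16.7% in WT72, 0.417% in KO15 and 22.5% in KO25 at day 2, against 48.8%, 98.8%, 78.8% and 95.4% at day 0. The mean difference was -62.7 ± 30.4 points (SD, n = 4), lower at day 2 in 4 of 4 lines, with p = 0.125 by the exact sign-flip test (two-sided). WT70 departed least, and its day 0 library had 1484 peaks, against 3450 in WT72, the part of which was not tested. Pou3f1 and Fgf5 were called at day 2 in none of the 4 lines and at day 0 in 3 of 4, and Zic2, Bcl11a, Grik3 and Brsk2 in none at day 2 and in all 4 at day 0. Neurod1 was not alike in the other lines, with a call in 1 of 4 at day 2 and in 1 of 4 at day 0. No region lost in MUT was called at day 2 in all 4 other lines, and 145 were called in none.

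**Figure D5:**
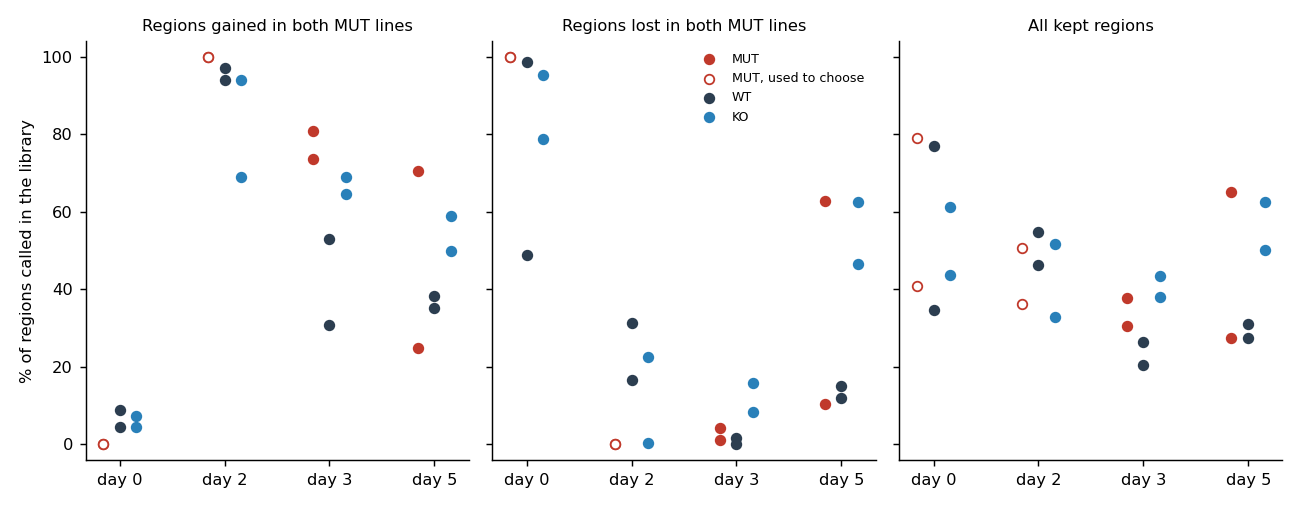
Percentage of regions called (vertical) by day (horizontal) for the 68 regions gained and the 240 lost in both MUT lines and for all 3828 kept regions, with 1 point per library and open points for the 4 MUT libraries that chose the regions. WT and KO lines call 69.1% to 97.1% of gained regions at day 2 and 4.41% to 8.82% at day 0. At day 5, lost regions are called in 62.9% of cases in MUT CM59 and 10.4% in CM69, beside 65.1% and 27.4% of all kept regions.

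Later in MUT, the gained regions were called in 80.9% of cases in CM59 and 73.5% in CM69 at day 3. All kept regions were called in 37.7% and 30.5% at that day. At day 5 the gained regions were called in 70.6% and 25%, near the 65.1% and 27.4% of all kept regions. The lost regions were called in 4.17% and 1.25% at day 3. At day 5 the lost regions were called in 62.9% and 10.4%, when the 2 lines differed in all kept regions as well. Klf4 and Klf2 had a promoter peak in CM59 and CM69 at day 3 and in CM59 at day 5. Fgf5 and Zic2 had none in either line at either day, whereas Brsk2 and Grik3 had one in both lines at day 5.

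Median peak width was higher at day 2 in all 6 lines sampled on both days. It was 8115 bp at day 2 and 4775 bp at day 0 in CM40, and 5976 bp and 5476 bp in CM59. The log2 change was 0.77 in CM40, 0.13 in CM59 and 0.16 to 0.92 in the other 4 lines, with a mean of 0.58 ± 0.35 (SD, n = 6). It was positive in 6 of 6 lines, with p = 0.0313 by an exact sign-flip test (two-sided), the smallest 6 lines can give, and 0.0625 after Benjamini-Hochberg adjustment over the 4 measures tested. In the 855 regions called in all 12 libraries the median log2 width change was 0.26 in CM40, 0.038 in CM59 and 0.20 to 0.59 in the others, with a mean of 0.34 ± 0.22 (SD, n = 6, exact p = 0.0313, adjusted p = 0.0625). The number of peaks changed by a mean log2 of -0.37 ± 0.53, lower at day 2 in 5 of 6 lines with WT70 the exception (exact p = 0.156, adjusted p = 0.208). Covered bases changed by 0.26 ± 0.39, with p = 0.219 before and after adjustment by the same exact test. A difference of the MUT lines from the others was not detectable at this number of lines. MUT minus the other lines was -0.12 in the log2 number of peaks, -0.39 in covered bases, -0.20 in median width and -0.28 in the width of shared regions, with exact permutation p of 0.933, 0.33, 0.6 and 0.2 (two-sided), and 2 lines against 4 cannot go below 0.067. Signal under peaks was higher at day 2 than at day 0 in all 6 lines as well, by 1.17 to 3.31 times, and its part in the widening was not tested.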

How the data were processed

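H3K27me3 CUT&RUN peaks of mouse lines were used as the authors deposited them. Per the study's methods, reads were trimmed with Trim Galore, aligned with Bowtie to GRCm38.p6, deduplicated with Picard, and SEACR called stringent peaks per library over its IgG control. The SEACR version is not given in the sources used here. The deposited values are the summed and the highest signal of a peak, unscaled coverage, and the authors' 4 region lists hold positions only. Depth is unknown, and counting intervals could not be had. KO25 samples were identified by title, since their description names another line.

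Peaks of 30 libraries were merged into 4512 regions, of which 3828 had peaks from 2 or more libraries and were kept. A region or promoter (1.5 kb to either side of the start sites of 21866 GENCODE M21 protein-coding genes) was called where at least 1 bp overlapped a peak. Widths are covered bases. Lines were paired by name, each being the same clone on both days, although deviations of CM40 from CM59 on the 2 days correlated at only r = 0.0078 over 3225 regions. Whether a clone's 2 libraries came from separate cultures is not given, so p-values measure spread between lines. Named genes were list members gained or lost in both lines, the 10 strongest gained and the 10 strongest lost regions, the 10 regions with the largest change in each direction, and 25 landmark genes. Members, lists (19, 500 of 501 genes found) and tests were chosen with earlier results of these data known. Alternatives were equal or fewer peaks, other regions, overlaps, promoter windows and folds, and leaving out lines. Tests are exact sign-flip and permutation tests. Functions were tested on simulated peaks. Python 3.11.15, NumPy 2.4.6, pandas 2.3.3, SciPy 1.17.1, pysam 0.24.0 and Matplotlib 3.10.9 were used. One item is not reported here. IgG libraries entered only through the peak calling.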

Additional observations from a re-analysis of the deposited data

How the results depend on the processing

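With the 1586 strongest peaks of each library, 207 regions and 185 promoters were gained in both MUT lines, against 68 and 60, and where 50% of a region had to be covered 133 regions were gained. Counting only peaks in the upper 50% of their library, an alternative chosen after seeing the data, left 16 gained and 16 lost regions and 21 gained and 15 lost promoters. With a single line (without the other replicate) there were 192 to 256 gained and 430 to 1276 lost regions, 175 to 256 gained and 367 to 1049 lost promoters, 130 to 279 wider and 20 to 83 narrower regions. Stricter peaks gave 33 wider and 3 narrower regions in place of 54 and 6, and a 2-fold limit gave 14 wider and 0 narrower. Over 6 lines, leaving out 1 line kept the sign of both width changes (median peak width 0.51 to 0.67, shared regions 0.28 to 0.40), with exact p = 0.0625, the smallest 5 lines can give. Without the line as a block (no pairing), an exact permutation of days gave p = 0.00433 for median peak width (mean log2 change 0.58), p = 0.00866 for shared regions (0.39), p = 0.162 for the number of peaks (-0.37) and p = 0.225 for covered bases (0.26). Adjusted over these 4 measures (Benjamini-Hochberg), both width changes had an exact permutation p = 0.0173 without the pairing, against 0.0625 with it, so both pass 0.05 only without it. No gained or lost gene reversed direction under the 5 alternatives for promoters, and 27 of 60 gained and 68 of 202 lost genes were called the same way in both lines under every one of them, among them Klf2, Klf4, Tcf15, Lefty1, Fgf5, Pou3f1 and Zic2. Id1, Id2, Hhex, Cdx4 and Grin1 each failed 1 of the 5, and Fgf14, Fgf15 and Kcnj3 failed 2. What limits these counts is the number of lines, the unknown depth, and a peak list that holds nothing below each library's own threshold, so that a missing peak is not an absence of the mark.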
